A study of Mus musculus with 6 samples.

Results

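The TAM receptors and their ligands are 5 genes: the receptor tyrosine kinases Axl, Mertk and Tyro3, and the secreted proteins Gas6 and Pros1 (protein S) that bind them. They were chosen by gene symbol as the receptor family and its main ligands, and each symbol matched 1 of the 46603 genes counted in the files. The libraries came from cultured enteric glial cells (EGCs), which support the neurons of the gut, obtained through neurospheres from the intestine of E14.5 C57BL/6J embryos. All cultures had been kept as spheres with EGF and FGF for 1 week and then plated in medium with 10% fetal bovine serum until they were confluent. The 3 LPS libraries came from cells given lipopolysaccharide, a bacterial cell wall component that activates Toll-like receptor 4, at 100 ng/ml for 12 h, and the 3 control libraries from untreated cells. The labels number the replicates from 1 to 3 in each group and do not say whether these were separate cultures or litters, so p-values measure the spread between these libraries, which may be technical.

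TAM receptors sit in the plasma membrane and are engaged by Gas6 or protein S. Both ligands carry a vitamin K-dependent domain that binds phosphatidylserine on dying cells, so that they bridge a dying cell to the cell that takes it up. Gas6 binds all of these receptors, whereas protein S, an anticoagulant of plasma, binds Tyro3 and Mertk. In macrophages and dendritic cells, TAM signalling is known to dampen Toll-like receptor and cytokine responses through the type I interferon receptor and the suppressors Socs1 and Socs3. Mertk is a widely used marker of tissue macrophages, Axl is known as the family member that inflammatory stimuli induce, and Tyro3 is the member best known from the nervous system. Serum contains protein S, and the amount of any TAM protein was not measured here.

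Library totals ran from 18775316 to 23664312 counts, and the lowest count of any member in any library was 375, for Mertk in LPS replicate 2. Levels are given as CPM, the counts of a gene relative to the library size after correction with TMM factors. The cultures held transcripts of several cell types. Of 8 glial markers, 7 passed the filter on low counts, and their summed level was 264 to 377 CPM in the control and 306 to 324 CPM in the LPS libraries, with S100b called lower, Fabp7 called higher and the other 5 not called. Summed mesenchymal markers reached 15123 to 16295 CPM over both groups. Macrophage markers differed widely between libraries of the same group: all 12 passed the filter, none was at or under 3 counts in every library, and they summed to 4079, 5277 and 12256 CPM in control replicates 1, 2 and 3 and to 4143, 5377 and 19656 CPM in LPS replicates 1, 2 and 3. Both libraries numbered 3 therefore stood apart. In bulk RNA, fewer cells of a type and less RNA per cell cannot be told apart, which holds for every level given here.

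Axl, the receptor known to be induced by inflammatory stimuli, was the most abundant receptor by far. The gene lies on the minus strand at chr7:25757273-25788705 (GRCm38, GENCODE M21; ENSMUSG00000002602, protein coding). It was at 597, 581 and 417 CPM in control replicates 1, 2 and 3 and at 998, 965 and 611 CPM in LPS replicates 1, 2 and 3. Every LPS library was above every control library, although LPS replicate 3 was close to the highest control, and the library numbered 3 was the lowest of its group in both conditions. The mean was 531 ± 99.7 CPM without and 858 ± 214 CPM with LPS (SD, n = 3), a 1.61-fold difference. The log2 fold change was 0.69 (SE 0.24), with an adjusted p of 0.106 in the edgeR quasi-likelihood test, so Axl was not called. With the replicate number as a block, it was called higher (log2 fold change 0.68, SE 0.07, edgeR adjusted p = 0.00532), and within numbers 1, 2 and 3 the log2 differences were 0.74, 0.73 and 0.55. Without LPS replicate 3 the unblocked test also called it (0.88, edgeR adjusted p = 0.0229). Of all tested genes, 10.7% had a higher log2 fold change than Axl.

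**Figure D1:**
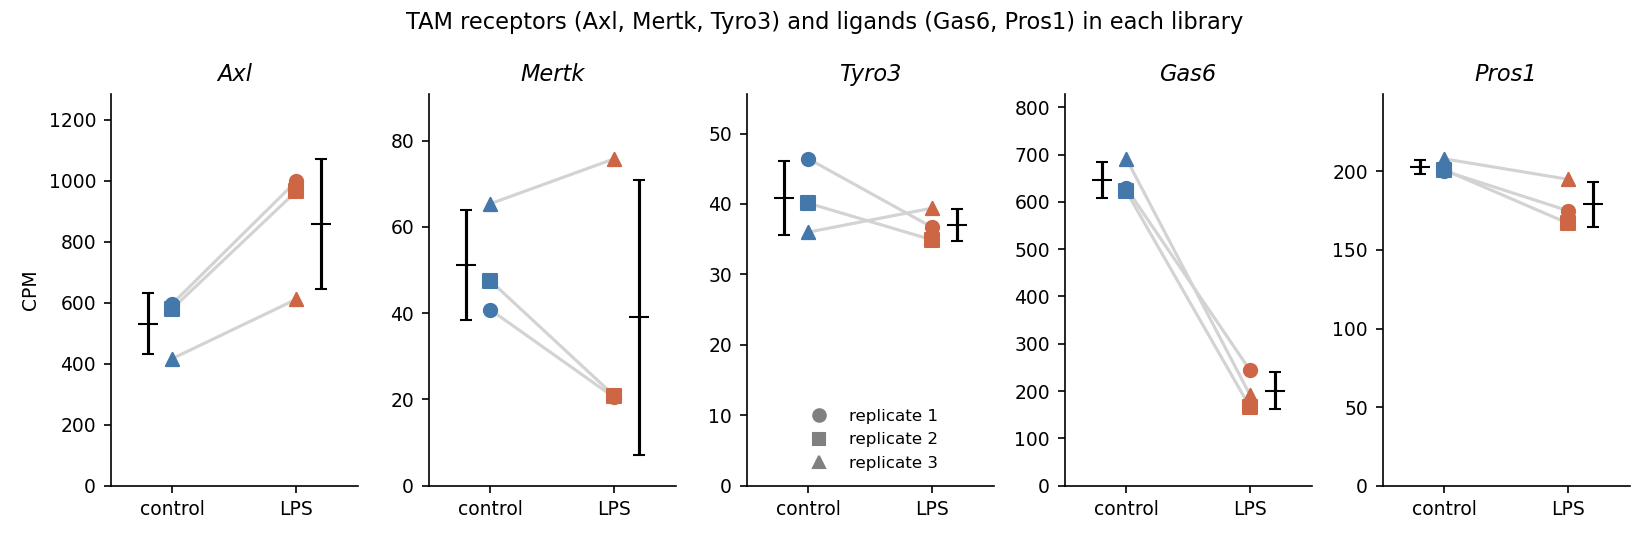
CPM of the 3 TAM receptors and their 2 ligands (one panel each, linear axis from 0) in the control (blue) and LPS (orange) libraries; symbols give the replicate number, grey lines join libraries of the same number, and black bars are the mean ± SD over 3 libraries. Gas6 in LPS (166 to 244 CPM) lies far below control (622 to 691 CPM), Axl is higher in LPS at each number, and Mertk parts by number.

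Mertk, the receptor of macrophages and other phagocytes, lies on the plus strand at chr2:128698956-128802894 (ENSMUSG00000014361, protein coding). It was at 40.8, 47.5 and 65.4 CPM in control replicates 1, 2 and 3, and at 20.5, 20.9 and 75.8 CPM in LPS replicates 1, 2 and 3. LPS replicates 1 and 2 were below every control library, whereas LPS replicate 3 was the highest of the 6, so the groups overlapped. The means of 51.2 ± 12.7 and 39.1 ± 31.9 CPM (SD, n = 3 each) gave a log2 fold change of -0.39 (SE 0.56) that was not called (edgeR adjusted p = 0.682), nor was it called with the replicate block (-0.64, SE 0.30, edgeR adjusted p = 0.177). Within numbers 1, 2 and 3 the log2 differences were -1.0, -1.18 and 0.21. Single libraries moved this value severalfold. It was -0.08, -0.09 and -0.16 without LPS replicate 1, LPS replicate 2 and control replicate 3 (edgeR adjusted p = 0.944, 0.942 and 0.887). Without LPS replicate 3 the log2 fold change was -1.31 (edgeR adjusted p = 0.0160), and with both libraries numbered 3 left out, it was -1.07 (edgeR adjusted p = 0.000238).

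Mertk and the macrophage markers were lowest and highest in the same libraries within each group. Csf1r, the receptor for the macrophage growth factor CSF-1, was at 118, 174 and 551 CPM in the controls and at 127, 161 and 844 CPM in LPS. Single markers in the sum went in different directions: 1 of the 12 was called higher (Adgre1, at 159, 229 and 472 CPM in control against 952, 1261 and 3699.6 CPM) and 11 were not called, against 4 higher and 5 lower with the replicate block. At numbers 1 and 2, where Mertk was lower with LPS, the macrophage mannose receptor Mrc1 was at 197 and 331 CPM in control against 9.29 and 10.4 CPM, and Cd68, a lysosomal protein of macrophages, at 238 and 323 CPM against 134 and 163 CPM. Csf1r differed little there. The part of macrophage transcripts in the level of Mertk was not tested. Axl had the opposite order, with its lowest value of each group in the library richest in macrophage markers.

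**Figure D2:**
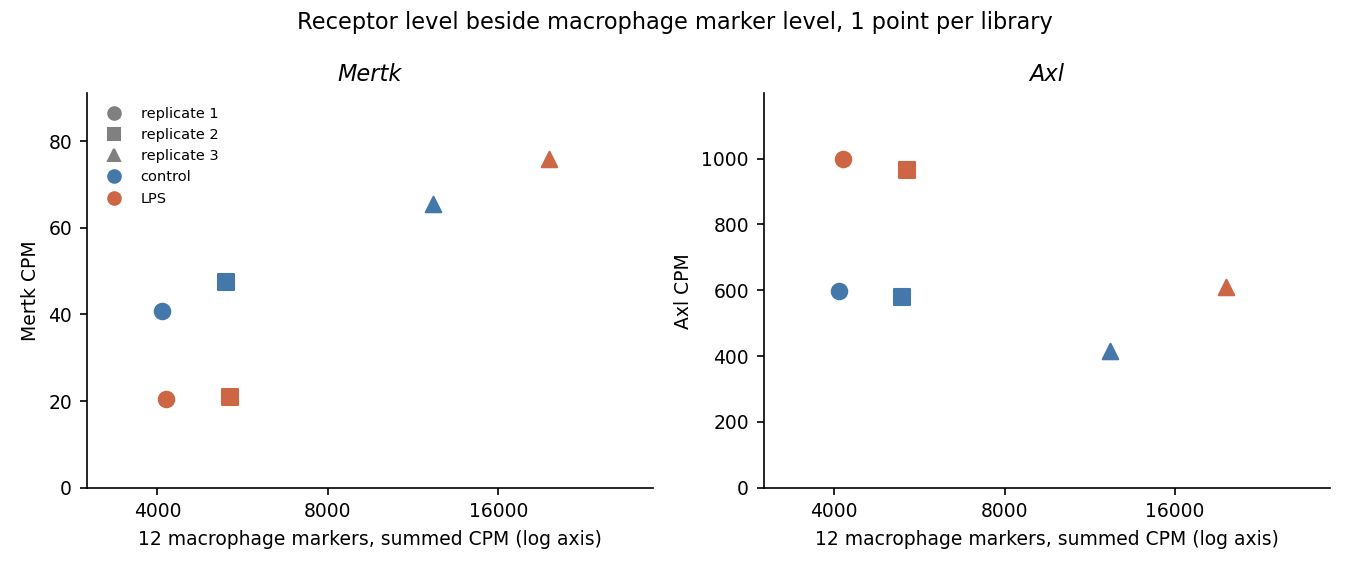
CPM of Mertk (left) and Axl (right) on linear axes against the summed CPM of 12 macrophage markers on a log axis, 1 point per library, with control in blue and LPS in orange and the symbol giving the replicate number. At marker sums of 4079 to 5377 CPM, Mertk was at 40.8 and 47.5 CPM in control and at 20.5 and 20.9 CPM in LPS, and both libraries numbered 3 sit to the right.

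Tyro3, best known from neurons and other cells of the nervous system, had the smallest log2 fold change of the receptors. It lies on the plus strand at chr2:119797733-119818104 (ENSMUSG00000027298, protein coding). It was at 46.4, 40.1 and 36.0 CPM in control and at 36.7, 34.9 and 39.4 CPM in LPS replicates 1, 2 and 3. The groups overlapped, with the LPS library higher at number 3 and lower at the other numbers. The means of 40.8 ± 5.24 and 37.0 ± 2.25 CPM (SD, n = 3 each) differed by a log2 fold change of -0.14 (SE 0.12; edgeR adjusted p = 0.455, and 0.386 with the replicate block), within the spread between libraries. None of the 16 alternatives called Tyro3.

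Gas6, the ligand of all of these receptors, fell with LPS. The gene lies on the minus strand at chr8:13465374-13494490 (ENSMUSG00000031451, protein coding). It was at 629, 622 and 691 CPM in control replicates 1, 2 and 3, and at 244, 166 and 192 CPM in LPS replicates 1, 2 and 3. The groups were far apart, and the highest LPS library was far below the lowest control. From 647 ± 38.2 to 201 ± 39.9 CPM (SD, n = 3 each) it was 3.23-fold lower, a log2 fold change of -1.69 (SE 0.16) with an adjusted p of 0.00269 in the edgeR quasi-likelihood test. The log2 differences within numbers 1, 2 and 3 were -1.36, -1.91 and -1.85. All 16 alternatives called it lower, with log2 fold changes between -1.85 and -1.57. By mean level it stood at percentile 99.1 of the tested genes in control and 93.6 in LPS, and 1.85% of tested genes had a lower log2 fold change. Markers of smooth muscle were lower in the same libraries: of 8 listed, 7 were tested and 6 of these fell, where 6.71% of all tested genes fell. Their summed level was 2325 to 2568 CPM in control against 677 to 972 CPM, with none of the 8 at or under 3 counts in every library. Mesenchymal markers summed to 15603 to 16295 CPM in control and to 15123 to 15842 CPM with LPS, a sum made up mostly of collagens, and of the 8, Dcn and Pdgfra were called higher and 6 were not called (2 higher and 2 lower with the replicate block). The part of these cell types in the level of Gas6 was not tested. The exons of Gas6 share 34 bases, 1.33% of their length, with Tmem255b on the opposite strand, and the strand setting of the counting is not given in the sources used here. The other members share no exon bases with another gene.

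Pros1, which encodes protein S, lies on the plus strand at chr16:62854307-62929346 (ENSMUSG00000022912, protein coding). It was at 200.3, 201 and 208 CPM in control and at 175, 167 and 195 CPM in LPS replicates 1, 2 and 3. Every LPS library was below every control library, by a small margin at number 3. The means of 203 ± 4.43 and 179 ± 14.4 CPM (SD, n = 3 each) gave a log2 fold change of -0.18 (SE 0.08) that was not called (edgeR adjusted p = 0.191, and 0.0831 with the replicate block). It was called lower in 4 of 16 alternatives, with scaling by library size alone (-0.34, edgeR adjusted p = 0.0280) or upper quartiles (-0.29, 0.0426), without LPS replicate 3 (-0.25, 0.0490) and without both libraries numbered 3 (-0.21, 0.0202). The first 2 of these scalings also moved the median log2 fold change of all tested genes from -0.02 to -0.18 and -0.12.

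Of the 5 members, the edgeR quasi-likelihood test thus placed 1 among the genes that fell (Gas6) and 0 among those that rose, leaving 4. Among all 15226 tested genes, 9.09% rose and 6.71% fell by the same test. With the replicate block, 1 member was called higher (Axl), 1 lower (Gas6) and 3 were not called, where 15.4% of all tested genes were called higher and 14.9% lower. By the non-overlap of groups, 1 member had all LPS libraries above control (19.3% of all tested genes did) and 2 had them below (19.4%).

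**Figure D3:**
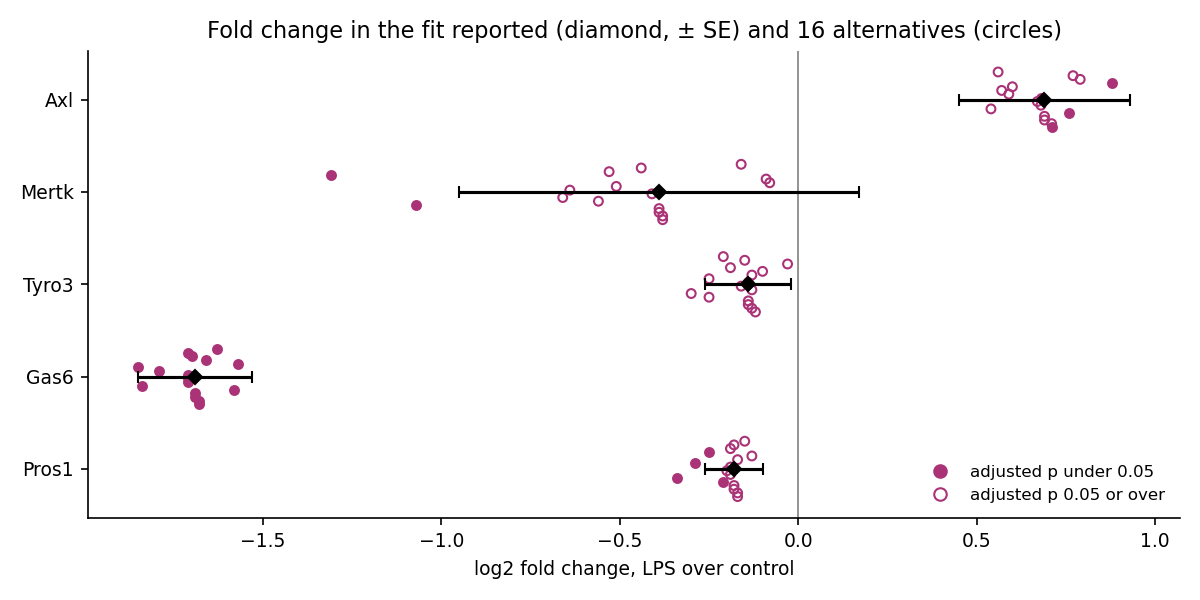
Log2 fold change of LPS over control for each member: diamonds with bars show the value reported ± SE, and circles the 16 alternatives, filled where the adjusted p is under 0.05. Gas6 is filled throughout (-1.85 to -1.57), Tyro3 nowhere, and Mertk spreads from -1.31 to -0.08.

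Because the members differ in exon length, from 2.55 kb for Gas6 to 6.2 kb for Tyro3, their levels were compared as CPM per kilobase of exon. In control the order of these levels was Gas6 (254 ± 15), Axl (106 ± 19.8), Pros1 (49.8 ± 1.08), Mertk (11.8 ± 2.93) and Tyro3 (6.59 ± 0.845; SD, n = 3 each). No neighbours in that order overlapped between their libraries. In LPS the order of levels per kilobase was Axl (171 ± 42.6), Gas6 (78.7 ± 15.7), Pros1 (43.8 ± 3.52), Mertk (9.01 ± 7.35) and Tyro3 (5.97 ± 0.363), so Axl and Gas6 had exchanged places, and Mertk and Tyro3 overlapped.

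Axl made up most of the receptor transcript. Its share of the summed receptor CPM per kilobase was 87.5, 86.9 and 79.9% in the controls against 94.9, 94.8 and 83.6% with LPS. The groups overlapped through the libraries numbered 3, in which Mertk took its largest share (12.0% in the LPS library, against 2.26 and 2.38% in the others of that group). Tyro3 had 5.53, 4.87 and 5.60% in control and 2.83, 2.79 and 4.38% in LPS, without overlap. The Axl to Tyro3 ratio was likewise higher in each LPS library, by 0.81 on the log2 scale (exact two-sided permutation p = 0.1, the smallest that 3 against 3 libraries allow; 0.2 adjusted over 4 ratios). The Axl to Mertk ratio differed by 1.33 (exact permutation p = 0.3, adjusted 0.4) and the Tyro3 to Mertk ratio by 0.52 (exact permutation p = 0.6, adjusted 0.6), both with overlap.

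Between the ligands, the ratio of Gas6 to Pros1 in CPM per kilobase of exon was 5.03, 4.95 and 5.32 in the controls, by replicate number, against 2.24, 1.59 and 1.58 with LPS. The ratio was lower in every LPS library than in any control library, with a mean difference of -1.52 on the log2 scale (exact two-sided permutation p = 0.1, adjusted 0.2). Within numbers 1, 2 and 3 the log2 ratio differed by -1.17, -1.64 and -1.75. Summed over both ligands, the level was 296, 293 and 322 CPM per kilobase in control and 139, 106 and 123 in LPS. Summed over the receptors, it was 135, 133 and 104 in control and 209, 202 and 145 in LPS. Ligand transcript per receptor transcript was therefore 2.18, 2.21 and 3.11 in control and 0.663, 0.524 and 0.846 in LPS. Ligands exceeded receptors in every control library and receptors exceeded ligands in every LPS library, and this ratio, which follows from the values of the single genes, was given no test of its own.

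**Figure D4:**
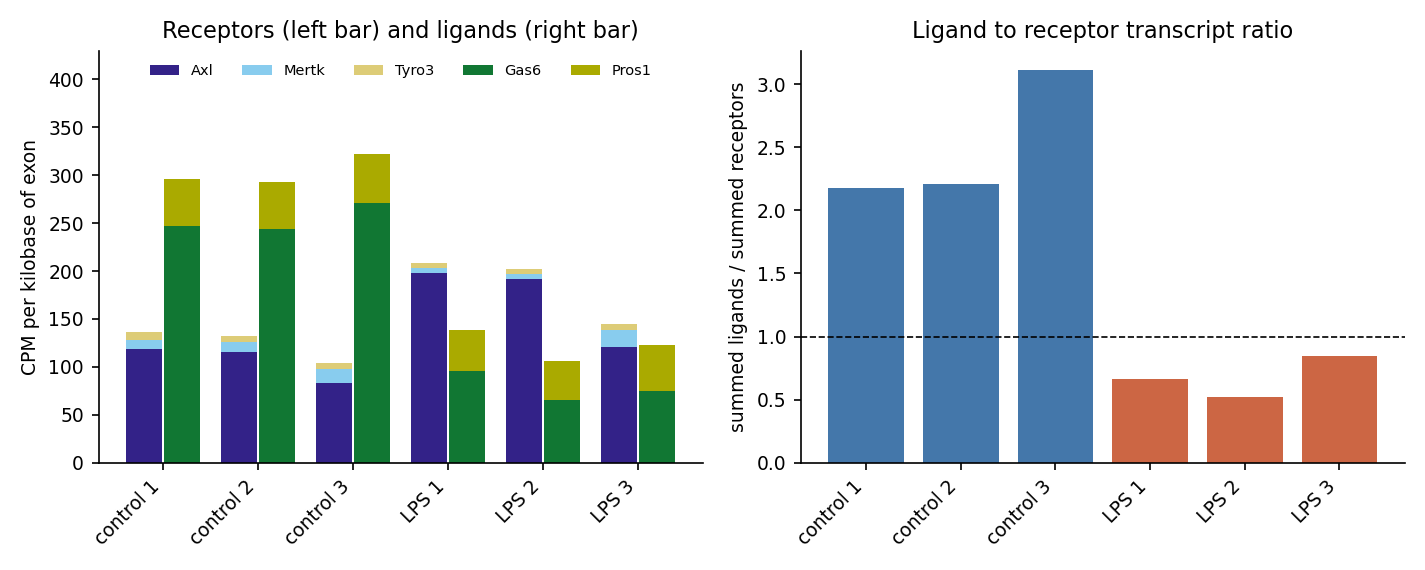
Left, stacked CPM per kilobase of exon of the receptors (left bar of each library) and the ligands (right bar), linear axis from 0. Right, the ratio of summed ligands to summed receptors in each library with a dashed line at 1: the controls are at 2.18 to 3.11 and the LPS libraries at 0.524 to 0.846.

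The start regions of the member that fell and of the member higher in LPS are shown because these were the members called with the replicate block. All 5 members matched a promoter in RefSeq (GRCm38.p6). The 250 bases before the RefSeq start site, 5′ to 3′ on the gene's strand, are printed with the GC box GGGCGG, on either strand, in capitals.
Gas6, chr8:13494536-13494785, minus strand: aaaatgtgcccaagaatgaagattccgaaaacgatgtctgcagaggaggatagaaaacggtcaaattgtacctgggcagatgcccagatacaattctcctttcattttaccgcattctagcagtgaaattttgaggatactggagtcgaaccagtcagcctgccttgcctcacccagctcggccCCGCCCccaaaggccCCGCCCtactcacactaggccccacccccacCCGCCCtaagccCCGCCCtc
Axl, chr7:25788734-25788983, minus strand: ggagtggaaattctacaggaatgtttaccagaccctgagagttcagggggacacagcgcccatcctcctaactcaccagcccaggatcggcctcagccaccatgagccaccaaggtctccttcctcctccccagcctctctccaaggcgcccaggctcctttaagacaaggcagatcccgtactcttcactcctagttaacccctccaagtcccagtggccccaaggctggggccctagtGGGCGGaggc
The Gas6 sequence was 54.8% G or C and held 4 GC boxes, and that of Axl was 60% and held 1. Mertk, Tyro3 and Pros1 held 3, 3 and 5, and a GC box is in 32.7% of 32851 promoters of that length. The E-box CANNTG, in 66.2% of promoters, matched Gas6 and Pros1 once each. These matches describe letters in a window, not bound sites.

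Lists of genes that work with the receptors held 59 genes, of which 57 were tested: 11 rose, 8 fell and the test did not call the remaining 38. Over all tested genes, 9.09% rose and 6.71% fell by the same test, and 15.4% and 14.9% did with the replicate block. Whether the lists differed from these shares was not tested. Among 6 genes of ligand maturation and receptor shedding, 2 rose and none fell (2 and 1 with the replicate block). Their median log2 fold change was 0.13, against -0.02 over all tested genes. Adam17, a protease that cuts Mertk and Axl from the cell surface, rose from a mean of 132 ± 21.1 CPM to one of 276 ± 34.9 CPM (SD over 3 libraries; log2 fold change 1.07, SE 0.15, edgeR adjusted p = 0.0104, and 0.0659 without control replicate 2). Adam10, a sheddase of Axl, averaged 306 ± 17.8 CPM in control against 233 ± 23.4 CPM, without overlap (log2 fold change -0.39, edgeR adjusted p = 0.0504, and 0.0138 with the replicate block). Ggcx and Vkorc1, the carboxylase and the vitamin K reductase on which the ligands' lipid-binding domain depends, both had a log2 fold change of 0.13 (edgeR adjusted p = 0.602 and 0.478), which was -0.02 for both when scaled by library size alone. Furin, a protease that processes protein precursors, rose by 0.46 (edgeR adjusted p = 0.0458), a call lost in 9 of 16 alternatives.

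Socs1 and Socs3, the suppressors through which TAM signalling is known to act in macrophages, rose. Whether TAM signalling had a part in this was not tested. Of 10 genes for signalling partners and feedback, 4 rose and 3 fell (5 and 3 with the replicate block), with a median log2 fold change of 0.25. Socs1 rose from 2.14 ± 0.258 to 18.3 ± 1.64 CPM (log2 fold change 3.09, SE 0.15, edgeR adjusted p = 0.000300) and Socs3 from 28.0 ± 3.02 to 153 ± 34.3 CPM (2.45, SE 0.18, edgeR adjusted p = 0.00136), both suppressors of cytokine signalling. Both calls held in all 16 alternatives. Ifnar2 rose by 1.06 (edgeR adjusted p = 0.00834, and 0.0533 without control replicate 2), and Ifnar1, the other subunit of the type I interferon receptor, was at 116 ± 26.4 and 169 ± 31.1 CPM (0.54, edgeR adjusted p = 0.132, and 0.00598 with the replicate block). The regulatory subunits of PI3-kinase Pik3r1 (-0.34) and Pik3r2 (-0.32) and the phospholipase Plcg1 (-0.54) fell (edgeR adjusted p = 0.0278, 0.0276 and 0.0150), each call lost in 4 to 7 of 16 alternatives.

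**Figure D5:**
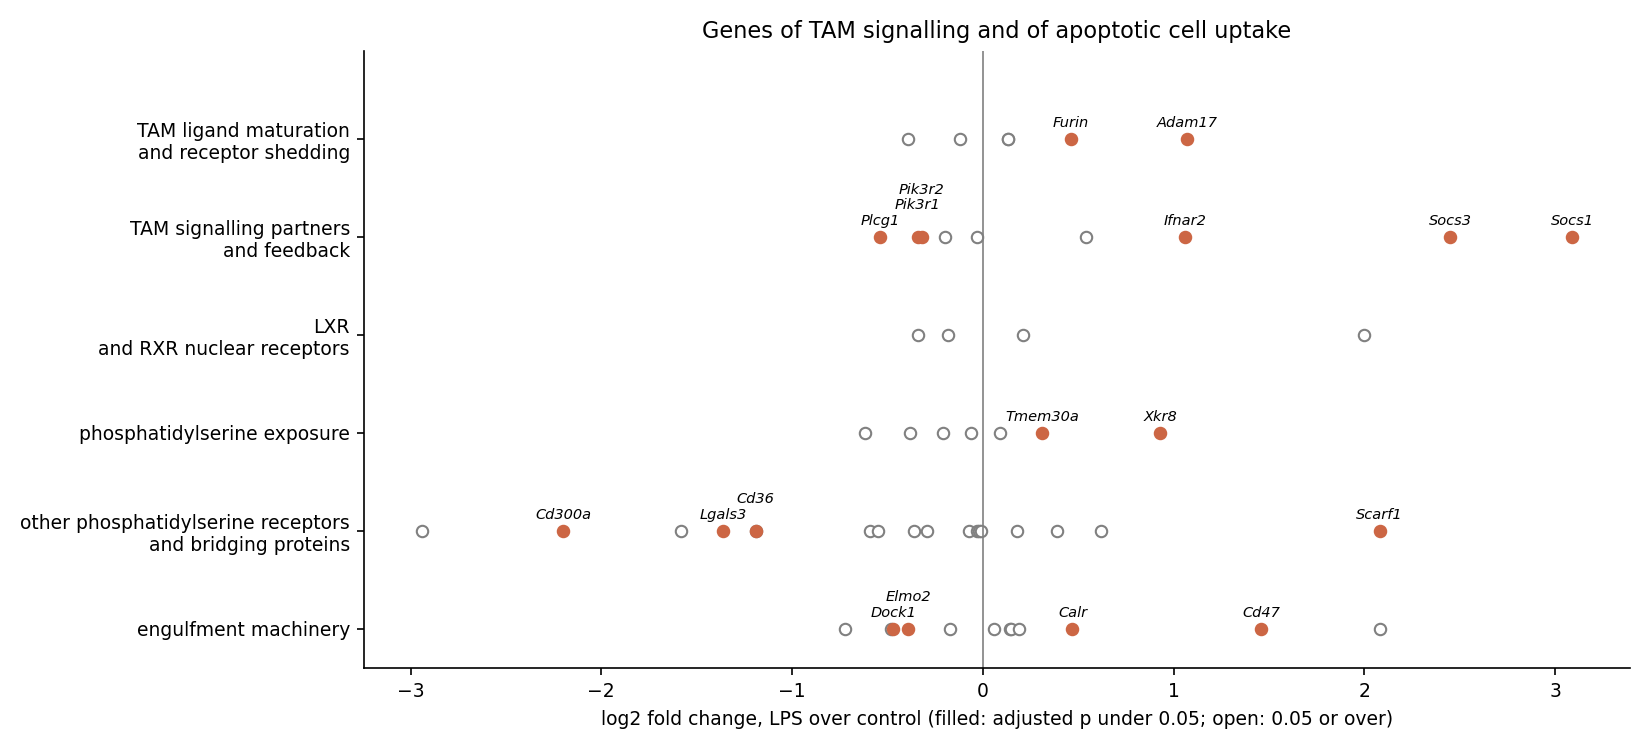
Log2 fold change of LPS over control for tested genes of 6 lists around the TAM receptors (those reported here), 1 point per gene, filled and named where the adjusted p is under 0.05. Socs1 (3.09) and Socs3 (2.45) lie farthest right among the filled points and Cd300a (-2.20) farthest left.

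Among the 4 LXR and RXR nuclear receptor genes, regulators of Mertk transcription in macrophages, 0 were called by the edgeR quasi-likelihood test and 1 was called lower with the replicate block. Nr1h3 (LXRα) averaged 7.37 ± 1.52 CPM in control against 29.4 ± 23.5 CPM with LPS (log2 fold change 2.0, SE 0.57, edgeR adjusted p = 0.0694), without overlap of the groups. Its LPS libraries were at 17.4, 14.3 and 56.5 CPM, and without LPS replicate 3 the log2 fold change was 1.10 and was called (edgeR adjusted p = 0.0227), as it was without both libraries numbered 3 (0.98, edgeR adjusted p = 0.00270). Of 7 genes for phosphatidylserine exposure, the signal the ligands bind, 2 rose: the scramblase Xkr8 (0.93, edgeR adjusted p = 0.00861) and the flippase subunit Tmem30a (0.31, edgeR adjusted p = 0.0372), calls lost in 1 (without control replicate 2) and 9 of 16 alternatives.

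Some of the other proteins that recognise a dying cell fell as well. Of 20 listed phosphatidylserine receptors and bridging proteins, 18 were tested, 1 rose and 3 fell (2 and 7 with the replicate block), with a median log2 fold change of -0.32. Lgals3 (galectin-3, also described as a Mertk ligand) fell from 832 ± 131 to 325 ± 22.2 CPM (-1.36, SE 0.14, edgeR adjusted p = 0.00346). Cd300a, an inhibitory phosphatidylserine receptor, fell from 27.2 ± 4.87 to 5.91 ± 1.12 CPM (-2.20, SE 0.21, edgeR adjusted p = 0.00263), and the scavenger receptor Cd36 from 238 ± 25.7 to 105 ± 31.0 CPM (-1.19, SE 0.22, edgeR adjusted p = 0.0214, lost in 4 of 16 alternatives). Mfge8, the bridging protein that pairs with integrins in place of TAM receptors, was at 565 ± 89.9 and 439.9 ± 81.6 CPM with overlap (-0.36, edgeR adjusted p = 0.237, and 0.0158 with the replicate block). The scavenger receptor Scarf1 rose from 1.63 ± 0.378 to 6.92 ± 4.01 CPM (2.08, edgeR adjusted p = 0.0362, lost in 5 of 16 alternatives). Of 12 genes of the engulfment machinery, 2 rose and 2 fell (3 and 4 with the replicate block; median log2 fold change 0.10). Cd47, the signal against being eaten, rose from 74.7 ± 1.67 to 205 ± 7.66 CPM (1.46, SE 0.07, edgeR adjusted p = 0.000260). The transcript of the chaperone Calr rose by 0.47 (edgeR adjusted p = 0.0370, lost in 8 of 16 alternatives). Elmo2 and Dock1, partners in the activation of Rac, fell (log2 fold changes of -0.39 and -0.47, edgeR adjusted p = 0.0146 and 0.0186, lost in 4 and 3 of 16 alternatives).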

How the data were processed

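Poly(A) RNA of 6 libraries was sequenced on a NextSeq instrument after stranded preparation. The values deposited by the authors were raw counts per gene, 1 file per library. The submitters' processing notes name cutadapt 1.15, Bowtie2 2.3.3.1, STAR 2.5.2b, SAMtools 1.5, featureCounts 1.5.3 and GRCm38. The strand setting and the handling of reads with several alignments are not given in the sources used here.

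The 46603 genes were filtered with filterByExpr (minimum count 10, minimum total 15), which left 15226, and scaled with TMM factors. LPS and control were compared with the edgeR 4.0.16 quasi-likelihood test (R 4.3.3), in a model holding only the group, p-values were adjusted by Benjamini-Hochberg across the tested genes, and a call needed an adjusted p under 0.05. The script was tested on simulated data. Dividing the size of a fold change (log2) by the square root of F gave its SE. Ratios of members used a pseudocount of 0.5 counts. Deviations from the group mean correlated between libraries of the same number (r = 0.513, 0.334 and 0.613 across genes, from the data, since the labels give the number alone), though numbers 1 and 2 also correlated with each other across groups (0.419 and 0.323) and number 3 stood apart from both (-0.564 to -0.396), so the fit with the replicate block is given where it changes a call. Alternatives were other scalings and filters, DESeq2 1.42.0, the edgeR exact test, limma-voom (limma 3.58.1), the block and left-out libraries. Exon lengths and positions come from GENCODE M21 and promoters from RefSeq.

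The 5 members are given with every library's value. Genes of 6 partner lists are named where called or where they act directly on the members (an item that entered the counts is not reported here by itself), and for each member the 3 genes most alike over the 6 libraries (Pearson r of log2 CPM, prior count 2, mean of at least 5 CPM) are named. Members and lists were chosen with earlier results of these data known. Besides the glial, macrophage, mesenchymal and smooth muscle markers given with the results, lists for other cell types were summed: neuron markers ran from 274 to 486 CPM in control and from 291 to 468 CPM in LPS, endothelial markers from 27.9 to 74.6 and 15.6 to 29.8, mesothelial markers from 63.2 to 95.4 and 34.6 to 56.4, other leukocyte markers from 2.12 to 11.4 and 6.54 to 15.9, and epithelial markers from 1.73 to 3.06 and 1.78 to 2.82.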

Additional observations from a re-analysis of the deposited data

How the results depend on the processing

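Gas6 was called lower and Tyro3 was not called in all 16 alternatives. Axl was called higher with DESeq2 (0.71), with the replicate block (0.68) and without both libraries numbered 3 (0.76), and leaving out 1 library gave 0.56 to 0.88, called without LPS replicate 3. Mertk was -1.07 without both libraries numbered 3 and -1.31 to -0.08 with 1 library left out. Pros1 was -0.29 with upper-quartile factors, -0.34 with library size alone, -0.21 without both libraries numbered 3 and -0.25 to -0.13 with 1 library left out. Members called higher numbered 1 with DESeq2, the block and both libraries numbered 3 left out, and 0 to 1 with 1 library left out. Members called lower numbered 2 with upper-quartile factors and library size alone, 3 without both libraries numbered 3 and 1 to 3 with 1 left out. The cause was not tested.

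Over all genes, 1384 were called higher and 1022 lower. Higher calls numbered 2079 with DESeq2, 2343 with the replicate block, 3498 without both libraries numbered 3 and 379 to 1964 with 1 library left out. Lower calls numbered 1589 with upper-quartile factors, 2054 with library size alone, 1673 with DESeq2, 2273 with the block, 3159 without both libraries numbered 3 and 112 to 1426 with 1 library left out. Of 400 comparisons over 25 partner genes, 319 kept direction and call, 62 lost the call, 17 gained one and 2 turned sign (Ggcx and Vkorc1, both -0.02 with library size alone). With 3 libraries a group, exact permutation cannot go below 0.1, or 0.25 for 3 pairs.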

Other observations

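The genes whose log2 CPM ran most like each member's were found among 11022 genes, as a description over 6 libraries that share the treatment and the differences between replicate numbers. For Gas6 they were Slc39a10 (Pearson r = 0.999), Kif1c (0.998) and Sord (0.997). Sord, sorbitol dehydrogenase, was at 46.6, 47.5 and 47.6 CPM in control and 24.8, 20.1 and 22.9 CPM in LPS, and the zinc transporter Slc39a10 at 75.4, 74.8 and 77.7 CPM and 54.8, 49.1 and 52.1 CPM. Kif1c was at 291, 292 and 293 CPM in control and 271, 265 and 266 CPM in LPS, a log2 fold change of -0.12. These genes were chosen for their likeness to Gas6 in the same libraries, so lower values with LPS were built into the choice.

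For Axl they were Pla2g4a (r = 0.999), Cars (0.999) and Adamts9 (0.998). Pla2g4a, the phospholipase that releases arachidonic acid, was at 217, 211 and 153 CPM in control replicates 1, 2 and 3 and 386, 373 and 229.6 CPM in LPS, and the secreted protease Adamts9 at 46.2, 45.7 and 18.8 CPM and 234, 215 and 50.2 CPM. As with Axl, the library numbered 3 was the lowest of each group.

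For Mertk they were Tmem86a (r = 0.999), Mtr (0.998) and Evl (0.997), each highest in LPS replicate 3 and lowest in LPS replicates 1 and 2. For Tyro3 they were Sirt4 (0.977), Arhgef19 (0.974) and Cog6 (0.969), and for Pros1 Cpt1a (0.999), Ap3d1 (0.999) and Nme4 (0.998). Among the members, Axl and Pros1 ran in opposite directions (r = -0.95), as did Axl and Mertk (-0.88), while Mertk and Pros1 ran together (0.86).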
